A study of Equus caballus with 19 samples.

Results

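The 2′-5′-oligoadenylate synthetase (OAS) family was measured in horse blood through OAS1, OAS2, OAS3 and OASL, 4 of the 799 genes that could be named on the array, carried by 13 of its 43384 probes. A probe was taken as a member when the transcript record given for it belongs to one of these genes in the horse RefSeq gene table. The family was chosen from earlier results of the same arrays, with the difference between the treatments known, so that difference is given here as a description without a test. The arrays held RNA from venous blood of 19 prepubertal Welsh foals aged about 10 months when treatment began, 1 array per horse and a single dye, taken after 12 weeks of treatment. The 9 control horses (6 males and 3 females; labelled as impoverished) were kept in individual stalls on shavings, saw and heard other horses without touching them, and went out alone to a paddock. The 10 EE-treated horses (4 males and 6 females; environmental enrichment, labelled as enriched) spent the day in large straw-bedded stalls with varied meals, changing objects, odours and music, and the rest of the time at pasture as a group. All horses had been reared together before the experiment. Each array was a sample of a separate horse, named here as in the labels (horse476). Values are log2 of the processed signal after each array was scaled to a 75th percentile of 500, so 1 unit is a doubling. The level of a gene is the mean of its probes. A level can be compared between horses but not between probes or genes, and in whole blood fewer cells of a type and less RNA per cell cannot be told apart.

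OAS enzymes are sensors of double-stranded RNA, a form of RNA that many viruses produce. On binding it, OAS1, OAS2 and OAS3 link ATP into short 2′-5′ chains of adenylate, which serve as a second messenger of the antiviral response. In humans OASL lacks this synthetic activity and acts on other steps of the antiviral response. Transcription of the family is induced by interferons, and in blood it rises in leukocytes during viral infection. In the horse assembly TB-T2T, the reference table places OAS2, OAS3 and OAS1 next to each other on a chromosome, with 1 other annotated gene and 0 other protein-coding genes between them. OASL lies on the same chromosome, separated from OAS2 by 59 protein-coding genes.

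All 13 OAS probes were well above background on all 19 arrays, and none was saturated. Mean levels of OAS1, OAS2 and OAS3 were lower in EE-treated than in control horses, by 0.54, 0.87 and 0.64 units of log2 (control over EE 1.46-fold, 1.82-fold and 1.56-fold). The mean level of OASL was nearly equal in the groups (1.03-fold). With normexp, another background correction, the log2 differences of OAS1, OAS2 and OAS3 were -0.96, -0.47 and -0.23. With 31 spots of very bright background left out of it they were -0.56, -0.71 and -0.55. The median difference over all probes was 0.86 with normexp and 0.14 with those spots left out, against 0.064 with the processed signal. The ranges of the groups overlapped for every member, and the range within each group exceeded the difference between the groups for each of the 4 genes.

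OAS1, the smallest enzyme of the family in humans, was carried by 4 probes. In control horses OAS1 ranged from 13.06 to 14.99 with a median of 13.71, and the mean was 13.99 ± 0.70 (SD, n = 9). In EE-treated horses it ranged from 12.72 to 14.63 with a median of 13.52, and the mean was 13.45 ± 0.54 (SD, n = 10). Below the control mean lay 9 of the 10 EE-treated horses, yet 8 of the 10 were within the control range. The EE minus control difference was -0.54 (SE 0.28) between means and -0.19 between medians. The 4 OAS1 probes ran closely together, with Pearson r between probes of 0.987 to 0.996 over the 19 horses, and their differences ran from -0.60 to -0.47.

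OAS2, which in humans has a pair of OAS domains of which the last is active, was carried by 6 probes. In control horses OAS2 ranged from 7.99 to 10.62 with a median of 8.39, and the mean was 8.94 ± 1.01 (SD, n = 9). In EE-treated horses it ranged from 7.60 to 9.50 with a median of 7.85, and the mean was 8.07 ± 0.56 (SD, n = 10). OAS2 showed the largest difference of the 4 genes and the least overlap, since 4 of the 10 EE-treated horses lay within the control range and 9 lay below the control mean. The EE minus control difference was -0.87 (SE 0.37) between means and -0.54 between medians. The 6 probes agreed almost fully, with r between probes of 0.995 to 0.998 and differences from -0.91 to -0.82.

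OAS3, the largest enzyme of the family in humans and the one with the highest affinity for long double-stranded RNA, was carried by 1 probe, so no second probe checks it. In control horses OAS3 ranged from 7.51 to 10.61 with a median of 8.46, and the mean was 8.72 ± 1.11 (SD, n = 9). In EE-treated horses it ranged from 7.30 to 9.35 with a median of 8.04, and the mean was 8.08 ± 0.59 (SD, n = 10). As for OAS1, the EE-treated horses included 9 under the mean of the controls and 8 within their range. The EE minus control difference was -0.64 (SE 0.40) between means and -0.42 between medians. Without control horse476 the difference between means was -0.40, a change of more than 1.5 times due to this horse. OAS3 had the widest spread of the family, with a 9.92-fold distance between the lowest and the highest of the 19 horses. The distance was 8.10-fold for OAS2, 4.82-fold for OAS1 and 3.92-fold for OASL. OAS3 rests on a single probe and the others on means of probes. The OASL mean combines probe A_69_P001271 at 2.28-fold and probe A_69_P001272 at 9.09-fold.

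**Figure D1:**
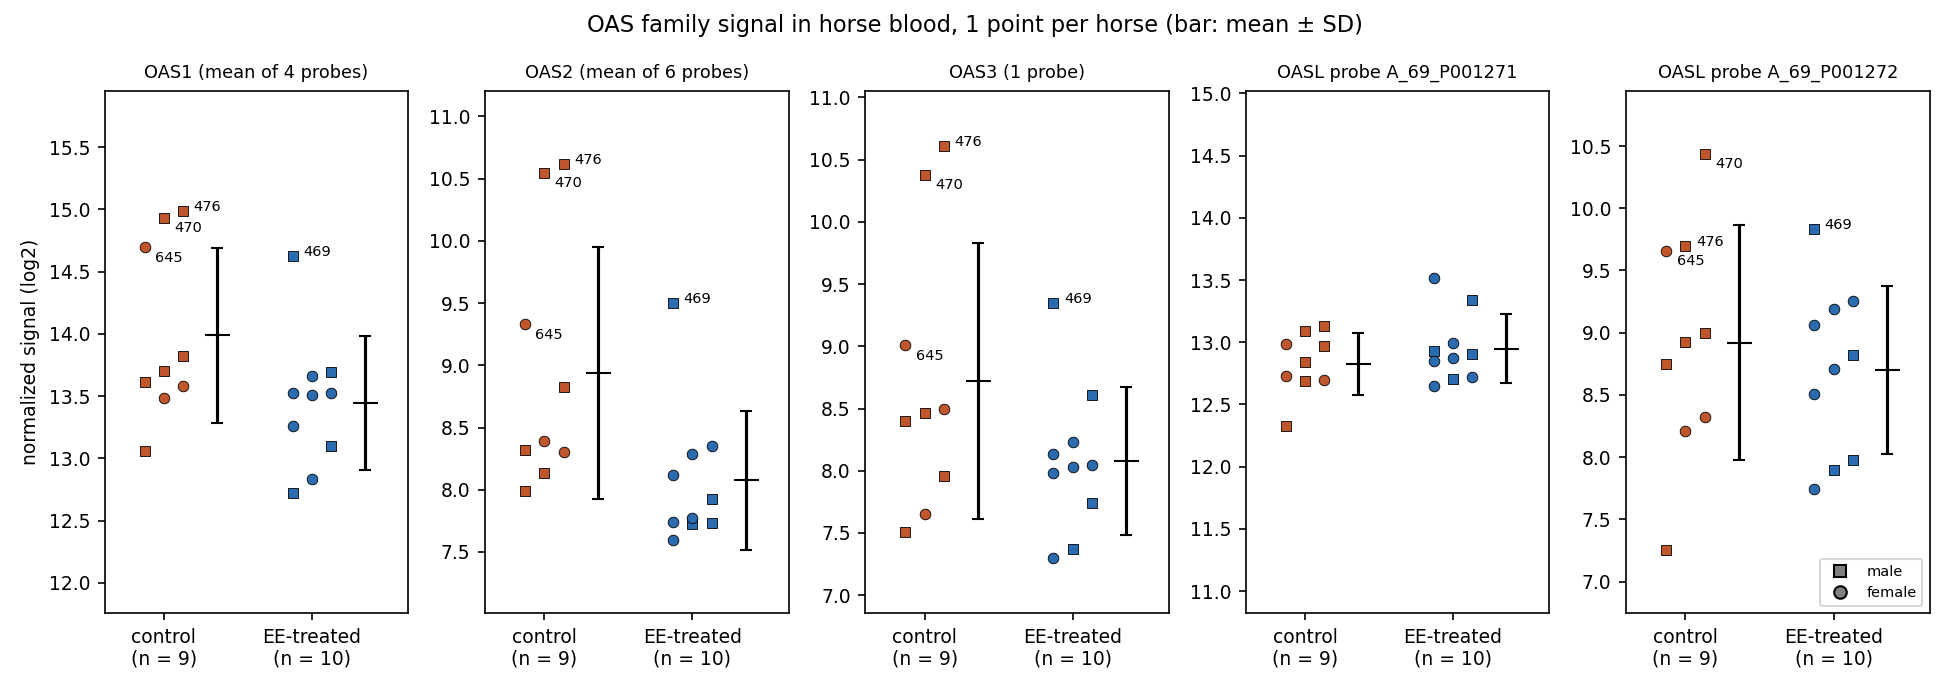
Normalized signal (log2) of OAS1, OAS2 and OAS3 and of each OASL probe, 1 point per horse (squares males, circles females), for 9 control and 10 EE-treated horses, with the group mean and SD as a bar. Each panel spans the same number of log2 units. Control horse476, horse470 and horse645 and EE-treated horse469 lie at the top of the first 3 panels and of the last panel, and the groups overlap in all 5.

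OASL, the family member without synthetic activity in humans, was carried by 2 probes that did not follow each other across horses (r = 0.38 over the 19 horses). On probe A_69_P001271, control horses ranged from 12.33 to 13.13 with a median of 12.84 and a mean of 12.83 ± 0.25 (SD, n = 9). EE-treated horses ranged on it from 12.65 to 13.52 with a median of 12.89 and a mean of 12.95 ± 0.28 (SD, n = 10). The groups overlapped almost fully on it. On probe A_69_P001272, control horses ranged from 7.25 to 10.44 with a median of 8.93 and a mean of 8.92 ± 0.94 (SD, n = 9). EE-treated horses ranged on it from 7.74 to 9.83 with a median of 8.76 and a mean of 8.70 ± 0.68 (SD, n = 10). The second probe varied between horses as widely as the other members, and the first varied less. The SD over the 19 horses was 0.26 on the first, at percentile 41.2 of the 24530 probes well above background on every array, and 0.80 on the second, at percentile 97.9. The remaining 11 probes of the family stood between percentiles 94.6 and 98.9. The EE minus control difference was 0.12 (SE 0.13) on the first OASL probe and -0.22 (SE 0.35) on the second. As the mean of both probes, OASL was 10.87 ± 0.56 (SD, n = 9) in control and 10.82 ± 0.39 (SD, n = 10) in EE-treated animals. For the gene the difference was -0.05 (SE 0.22), and this value turned to 0.06 without control horse470 and was -0.18 without control horse477. Why the OASL probes differ was not tested, and a level for the gene mixes their patterns.

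The same few horses stood at the top of the family. Control horse476, horse470 and horse645 and EE-treated horse469 were the 4 highest of the 19 on 12 of the 13 probes, and control horse476 and horse470 were the 2 highest on 11 of them. The exception to the first count was OASL probe A_69_P001271, where EE-treated horse646 was highest. Probes of OAS1 and of OAS2 ran closely together, so these counts are not of separate observations. For OAS1, horse476, horse470, horse645 and horse469 lay at 14.99, 14.93, 14.70 and 14.63, and the other 15 horses between 12.72 and 13.82. For OAS2 they lay at 10.62, 10.55, 9.33 and 9.50, and the others between 7.60 and 8.82. For OAS3 they lay at 10.61, 10.38, 9.01 and 9.35, and the others between 7.30 and 8.61. Thus an EE-treated horse reached the upper levels of the control group, and 6 of the 9 control horses lay among the remaining levels. On OASL probe A_69_P001272 they lay at 9.70, 10.44, 9.66 and 9.83, and the others between 7.25 and 9.26. At the low end, EE-treated horse648 was lowest for OAS2 and OAS3, EE-treated horse468 for OAS1 and control horse477 for OASL. The variance within the control group was 1.71 times that within the EE-treated group for OAS1, 3.25 times for OAS2, 3.50 times for OAS3 and 2.06 times for OASL, and these ratios were not tested.

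**Figure D2:**
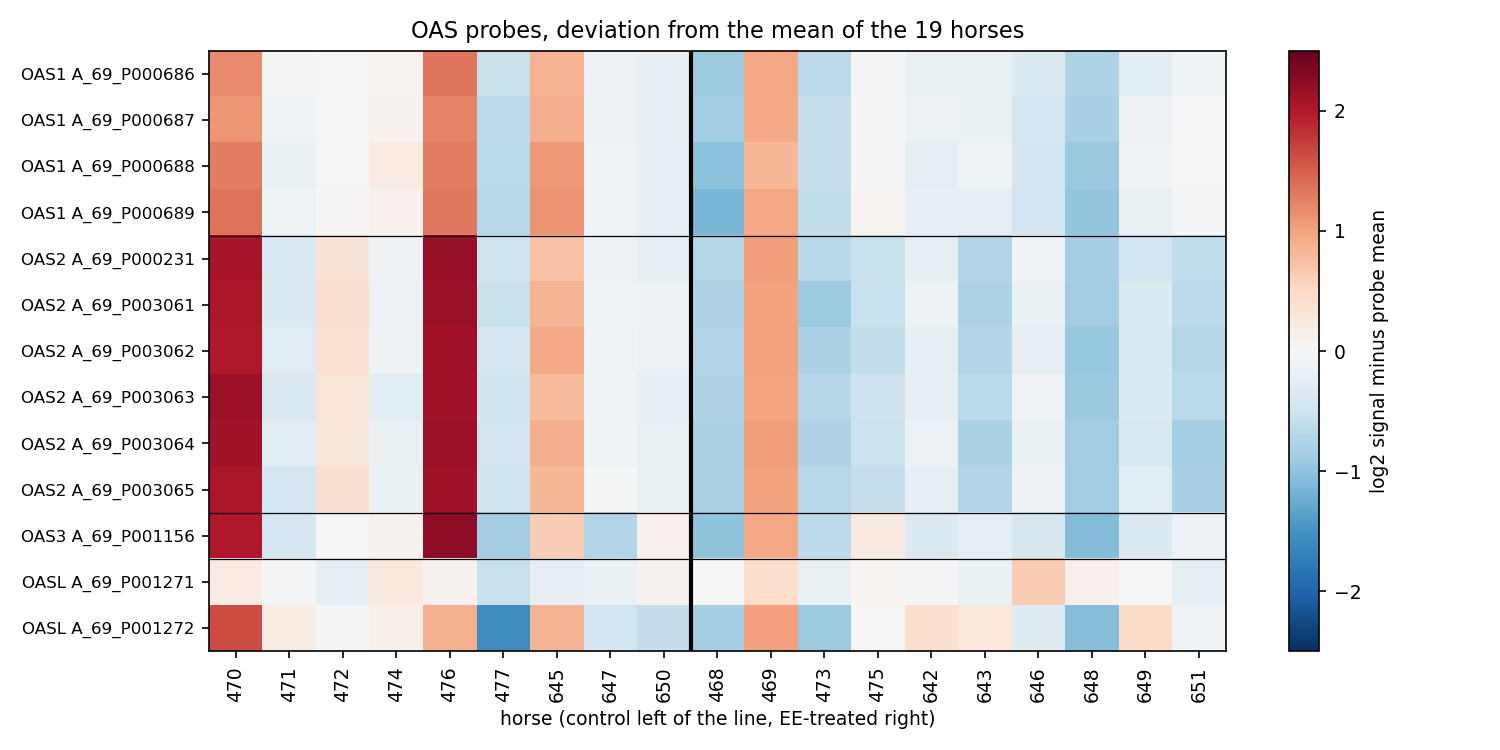
Deviation of each OAS probe from its mean over the 19 horses (log2, red above and blue below the mean), probes in rows grouped by gene and horses in columns, control left and EE-treated right of the line. The columns of horse470, horse476, horse645 and horse469 are red for every probe but OASL probe A_69_P001271, whose row is nearly uniform.

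Across horses, OAS1, OAS2 and OAS3 rose and fell together. OASL followed them as the mean of its probes, which differed from each other. Over the 19 horses, Pearson r was 0.94 for OAS1 and OAS3, 0.92 for OAS2 and OAS3 and 0.91 for OAS1 and OAS2. It was 0.82 for OAS1 and OASL, 0.79 for OAS3 and OASL and 0.73 for OAS2 and OASL. Spearman's rho ran from 0.70 to 0.87 over the 6 pairs. With the background corrected by normexp, r fell to 0.46 for OAS1 and OAS3 and 0.49 for OAS1 and OAS2, and it was 0.93 and 0.89 when 31 spots of very bright background were left out of that correction. With two-sided permutation tests (100000 resamples, smallest possible p 1e-05) and adjustment over the 6 pairs, the largest p was 0.00027 for r and 0.00122 for rho. Without control horse470 and horse476, the farthest from the median of the first-named gene of each pair, r still ran from 0.63 to 0.92. The largest adjusted permutation p was then 0.007.

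The relation was also present within each treatment, where the difference between the group means plays no part. In the 9 control horses r ran from 0.79 to 0.96 and rho from 0.77 to 0.95, with largest adjusted p of 0.00504 and 0.0214 in exact permutation tests. Without the 2 horses farthest from the median of the first-named gene, again horse470 and horse476, r ran from 0.61 to 0.89. Of the 6 pairs, 2 then passed an adjusted exact permutation p of 0.05, OAS1 with OAS2 and OAS1 with OAS3. In the 10 EE-treated horses r ran from 0.79 to 0.98 with a largest adjusted permutation p of 0.0144, and rho ran from 0.59 to 0.99 with 2 of the 6 pairs passing. Next, the 2 horses farthest from the median of the first-named gene of each pair were left out, which always included horse469. OAS1 with OAS3 (r = 0.94) and OAS2 with OASL (r = 0.81) then still passed. The other 4 pairs (r from 0.32 to 0.68) did not. These calls rest on fewer horses, and the part of horse469 in the lost ones was not tested apart from the lower number.

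Of the OASL probes, A_69_P001272 followed the other genes more closely. Its r was 0.88 with OAS1, 0.76 with OAS2 and 0.82 with OAS3 over the 19 horses, while r for probe A_69_P001271 was 0.24, 0.30 and 0.32. With the brighter probe alone standing for each gene, which for OASL is A_69_P001271, the 3 pairs with OASL no longer passed (permutation, adjusted p of 0.215 to 0.265). Since these genes were grouped by their known induction by interferon and with earlier results of these arrays in view, the correlations describe the family in these horses and are not independent evidence for its choice.

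**Figure D3:**
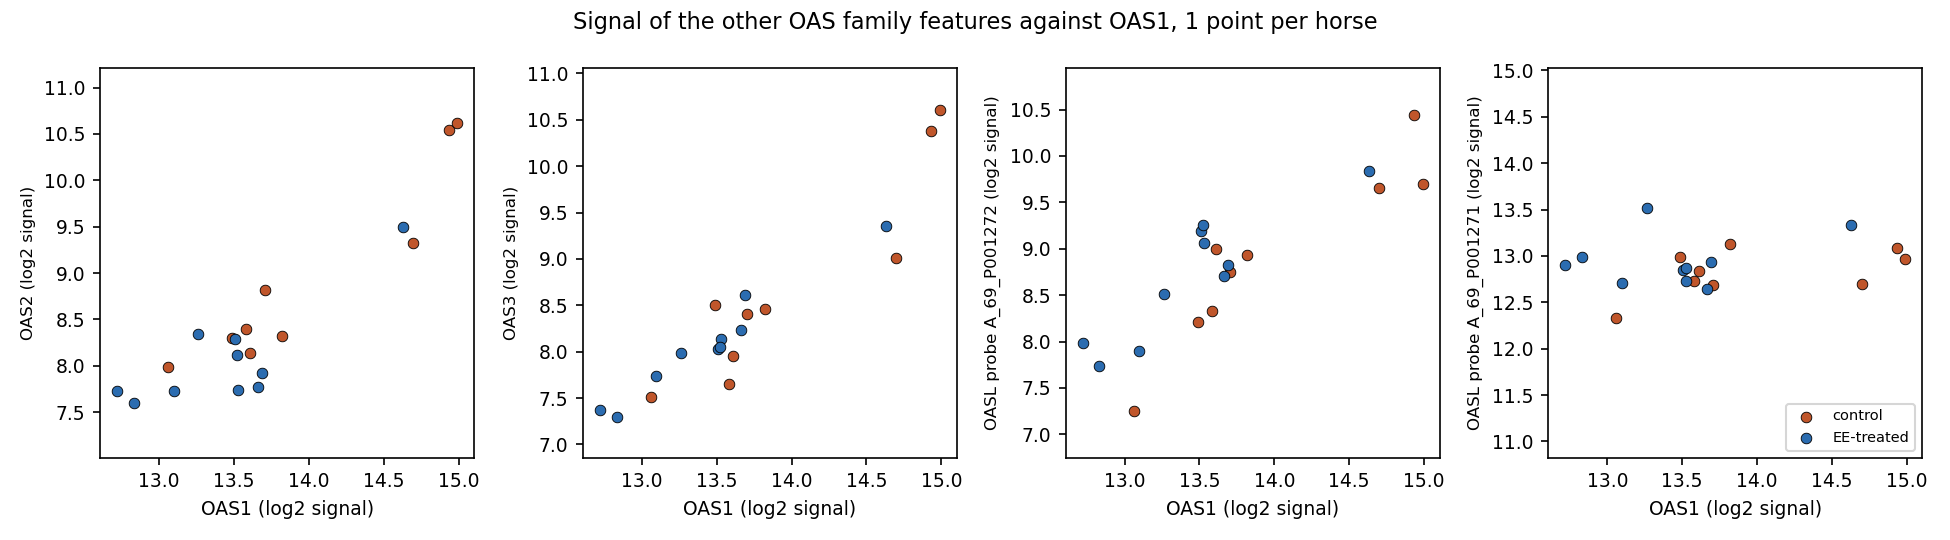
Log2 signal of OAS2, OAS3 and each OASL probe against that of OAS1, 1 point per horse, coloured by treatment. OAS2 (r = 0.91), OAS3 (r = 0.94) and OASL probe A_69_P001272 (r = 0.88) increase with OAS1 in both groups, while OASL probe A_69_P001271 (r = 0.24) stays near 1 level.

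At the thresholds of the study's methods, an unadjusted p under 0.005 with a ratio outside 0.8 to 1.2, 0 of the 13 OAS probes passed in limma, where 1.82% of all 43384 probes did. After Benjamini-Hochberg adjustment in limma, 0 of the 43384 probes passed 0.05. The count for OAS belongs to the contrast that was known when the family was chosen and is given as a description. The mean was lower in EE-treated horses on 12 of the 13 OAS probes, where the median difference over all probes was 0.064. The share of all probes that were lower is not given here, so this count cannot be set against it. Probes of OAS1 and of OAS2 ran closely together, so the 13 are not separate observations.

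The arrays lay on 5 slides, each with horses of both treatments, and slide 5 was scanned apart from the other slides. Within slides 1 to 4, each with 2 control and 2 EE-treated horses, OAS1, OAS2 and OAS3 were lower in EE-treated horses on every slide. The differences on slides 1, 2, 3 and 4 were -0.98, -0.42, -0.85 and -0.82 for OAS1. They were -1.33, -0.34, -1.50 and -1.32 for OAS2 and -1.42, -0.38, -1.33 and -0.72 for OAS3. On slide 5, which held control horse471 and EE-treated horse469 and horse475, the direction was the opposite, with differences of 0.55, 0.58 and 1.03. For OASL the differences on slides 1 to 5 were 0.13, 0.17, -0.42, -0.46 and 0.31. The 4 horses with the highest OAS levels lay on 4 different slides (horse476 on slide 1, horse470 on slide 3, horse645 on slide 4 and horse469 on slide 5). The other control horse of slide 1, horse477, lay at 13.06, 7.99 and 7.51 for OAS1, OAS2 and OAS3. The EE-treated means of that slide were 13.05, 7.97 and 7.64. On slides 3 and 4 the other control horses, horse474 and horse472, lay above the EE-treated mean of their slide for these genes. On a slide, positions 2 and 4 held control horses and positions 1 and 3 EE-treated horses, except for 1 EE-treated horse at position 2, so position and treatment cannot be told apart. Before scaling, the 75th percentile of an array lay between 346 and 814, and its r with the level was 0.34 for OAS1, 0.32 for OAS2, 0.32 for OAS3 and 0.19 for OASL. The part of array brightness in the levels was not tested beyond a fit with it as a covariate, which gave differences of -0.45 for OAS1, -0.76 for OAS2, -0.52 for OAS3 and 0.0047 for OASL.

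**Figure D4:**
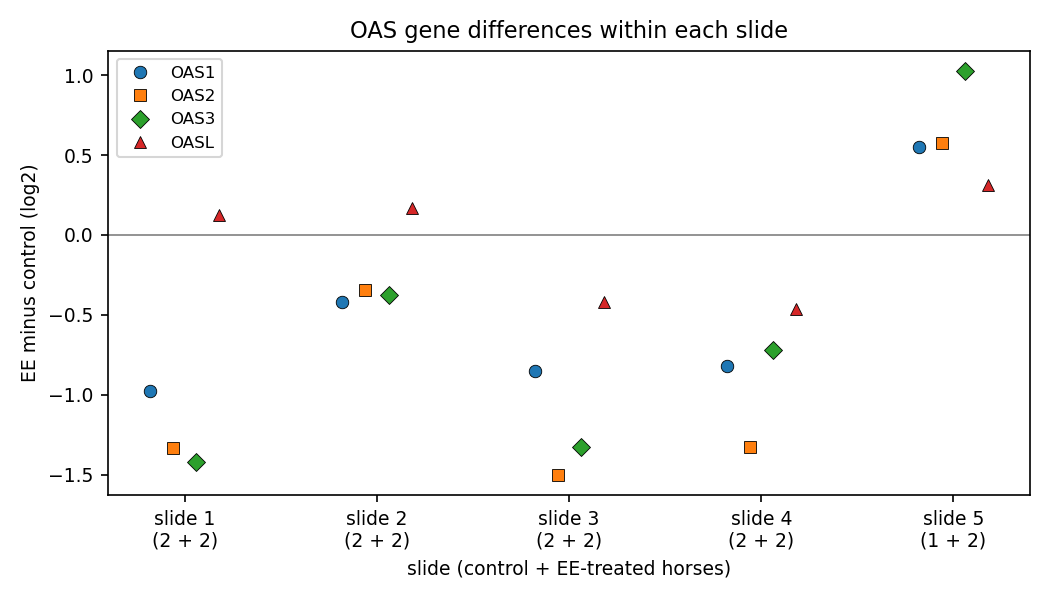
EE minus control difference (log2) of OAS1, OAS2, OAS3 and OASL within each of the 5 slides, with the number of control and EE-treated horses per slide on the axis. OAS1, OAS2 and OAS3 are below 0 on slides 1 to 4 and above 0 on slide 5, which has 1 control horse.

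Sex was not used in choosing the family, and the groups differ in it. With treatment in the fit, the male minus female difference was 0.13 (SE 0.30) for OAS1, 0.31 (SE 0.39) for OAS2, 0.40 (SE 0.42) for OAS3 and 0.05 (SE 0.23) for OASL. Without EE-treated horse469 these differences were -0.06, 0.11, 0.23 and -0.07, so the sign turned for OAS1 and OASL, as it did with slide as a block (-0.13 and -0.14). None of the 13 probes passed an adjusted p of 0.05 in limma (adjusted p from 0.861 to 0.972), where 23 of all probes or 0.053% did. None passed an unadjusted p of 0.05 either (smallest p 0.323 in limma), where 5.97% of all probes did. The differences of the 4 genes were smaller than their standard errors, and a difference between the sexes of this size was not detectable with these arrays. The difference between treatments was also set against sex. The interaction gave 0 of the 13 OAS probes at an adjusted p under 0.05 in limma (adjusted p from 0.983 to 0.999) and 0 at an unadjusted p under 0.05 (smallest p 0.616), where 3.05% of all probes passed the latter. In male control horses OAS2 ranged from 7.99 to 10.62 (n = 6) and in male EE-treated horses from 7.72 to 9.50 (n = 4). In female control horses it ranged from 8.30 to 9.33 (n = 3) and in female EE-treated horses from 7.60 to 8.35 (n = 6). Of the horses with the highest OAS levels, horse476, horse470 and horse469 are male and horse645 is female.

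Of the 10 named genes whose levels ran most like the family, 5 were on the lists of interferon and OAS pathway genes, against 10 of the 461 genes ranked. The family and the lists were chosen with earlier results of these arrays known, so these counts are a description. Likeness is the Pearson r over the 19 horses with the mean of the 4 OAS genes, each centred on its own mean, among 461 other named genes with a probe well above background on every array. The median r over these genes was -0.07, and r was above 0.8 for 4 of them. It was 0.93 for EIF2AK2, which encodes the kinase PKR, another enzyme switched on by double-stranded RNA. It was 0.92 for MX1, an interferon-induced GTPase that blocks viruses such as influenza, 0.86 for TLR2, a receptor for bacterial lipoproteins, and 0.85 for TRIM34, of the TRIM family of ubiquitin ligases. TLR8, an endosomal receptor for single-stranded RNA, followed with 0.80, and TMEM140, a membrane protein, with 0.78. The chemokines CCL8, which draws monocytes, and CXCL10, which draws activated T cells, had r of 0.74 and 0.67. PRKAB1, a subunit of the energy sensor AMPK, had 0.65, as did IFI27, an interferon-induced protein. With the group means subtracted, r was between 0.57 and 0.93 for these 10 genes.

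Genes with a high r did not all differ between the treatments to the same extent. Mean MX1 was 13.49 ± 1.30 (SD, n = 9) in control and 12.26 ± 0.66 (SD, n = 10) in EE-treated horses, and mean EIF2AK2 was 6.33 ± 0.89 and 5.62 ± 0.44. CCL8, with an r of 0.74, was nearly equal in the groups, at 6.73 ± 1.39 in control and 6.61 ± 1.35 in EE-treated horses. TMEM140 was 15.45 ± 0.36 and 15.35 ± 0.45. The lowest r belonged to GNLY, the granulysin of cytotoxic lymphocytes, with -0.60, GPX1, a glutathione peroxidase, with -0.55, and FAU, a ubiquitin-like protein fused to a ribosomal protein, with -0.54. Among all 24517 other probes well above background on every array, 33 had an r above 0.9 with the family mean and 0 below -0.9, and 30 of the 33 could not be named here. Of interferon genes named here only through the study's list of genes chosen on these arrays, IRF7, the master regulator of type I interferon production, had an r of 0.88, IFI6, which protects against apoptosis, 0.87 and USP18, which removes ISG15 and damps interferon signalling, 0.85.

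**Figure D5:**
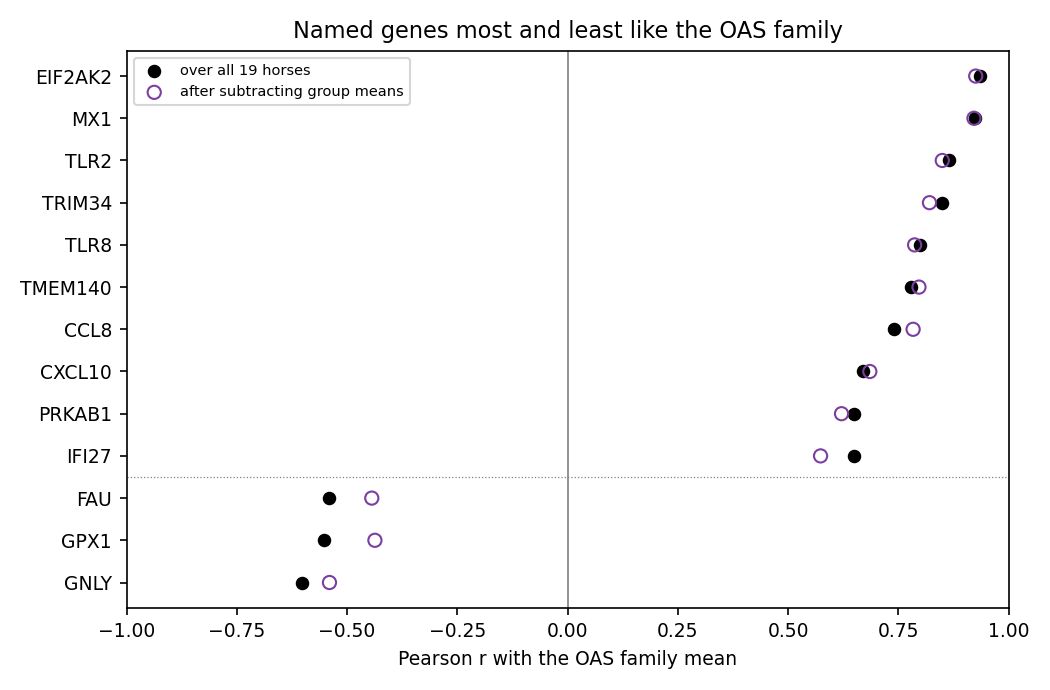
Pearson r with the OAS family mean over 19 horses (filled) and after subtraction of each group's mean (open) for the 10 named genes most like the family, above the dotted line, and the 3 least like it. EIF2AK2 (0.93) and MX1 (0.92) stand highest and GNLY (-0.60) lowest.

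Of the other genes of the system built on the 2′-5′ chains, ABCE1, an ATP-binding protein that also recycles ribosomes, was above background on 5 arrays at most. PDE12, which degrades the 2′-5′ chains, could not be named on the array.

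Of 93 other genes listed for the interferon and OAS pathway, 17 could be named, on 31 probes. None of the 31 probes passed the thresholds of the study's methods in limma (1.82% over all probes), and 0 passed an adjusted p of 0.05. At an unadjusted p under 0.05, 7 probes were lower and 1 was higher in EE-treated horses, 8 of 31 against 11.7% of all probes. MX1 and EIF2AK2 each entered the 8 with more than 1 probe, so these are not 8 separate genes. The median difference of the 31 probes was -0.23, against 0.064 over all probes, and 21 of them were lower in EE-treated horses. The share of all probes that were lower is not given here. Several of the 31 probes belong to the same gene, and some were above background on few or no arrays. The lists were written with earlier results of these arrays known, so these counts are a description.

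By role, of the listed interferons, the probes of IFNA1 were above background on 0 arrays, that of IFNB1 on 3 arrays and those of IFNG on 1 to 5 arrays. IFND1 and IFND2, horse interferon genes outside the lists and added here after their values were seen, were above background on every array, with r of -0.39 and -0.34 with the family mean. Of the receptors of viral nucleic acid, TLR3, which binds double-stranded RNA, was 4.64 ± 0.77 (SD, n = 9) in control and 3.87 ± 0.50 (SD, n = 10) in EE-treated horses, above background on 17 arrays. Its difference was -0.77 (SE 0.28), with an adjusted p of 0.318 in limma, and its r with the family was 0.16. Among signalling genes, SOCS3, an inhibitor of cytokine signalling, was higher in EE-treated horses by 0.46 (SE 0.17, limma adjusted p of 0.319), and 10 of 10 of them exceeded the control mean. Of the other interferon-induced genes, MX1 probe A_69_P000141 had the smallest p, with a difference of -1.26 (SE 0.44, limma adjusted p of 0.300), and lay below the control mean in 10 of 10 EE-treated horses.

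Markers of blood cells were set beside the OAS levels. Of 43 listed markers, 10 could be named, on 14 probes, and 8 of the 10 were above background on every array. None of their 14 probes passed the thresholds of the study's methods in limma, where 1.82% of all probes did, so a count of 0 says little. MMP9, the only named neutrophil marker, was 12.81 ± 0.69 (SD, n = 9) in control and 13.40 ± 0.32 (SD, n = 10) in EE-treated horses. Markers of tissues other than blood (ALB, MYH7 and GFAP) were at most on 2 arrays above background. Summed over the named markers of a type, the level in log2 ranged from 12.55 to 14.14 in control and 13.14 to 14.53 in EE-treated horses for monocytes (CD14 and CD68, 2 of 5), with an r of 0.26 with the family mean. For T cells (CD2, CD28 and IL7R, 3 of 8) it ranged from 9.18 to 10.30 and 9.36 to 10.18, with an r of -0.31. For neutrophils (MMP9, 1 of 7) it ranged from 11.72 to 13.76 and 12.94 to 14.04, with an r of -0.04. The ranges of the groups overlapped for each of these types. For NK cells (GNLY, 1 of 5) it ranged from 7.76 to 9.48 and 8.41 to 9.68, with an r of -0.60. For red cells (HBB and SLC4A1, 2 of 6) it ranged from 9.85 to 14.59 and 9.26 to 16.03, with an r of 0.22. SLC4A1 was above background on 2 arrays at most, so this sum is nearly HBB alone. For platelets (ITGA2B, 1 of 3) it ranged from 7.62 to 9.04 and 7.33 to 8.97, with an r of -0.01. No marker of B cells or plasmacytoid dendritic cells, the main producers of type I interferon, could be named. The brightest marker also weighs most in the sums for monocytes and T cells. In control horses mean CD14 was 13.47 and CD68 8.12, so the monocyte sum is nearly CD14 alone. For T cells CD2 was 9.28, IL7R 7.49 and CD28 4.13. The part of cell composition in the OAS levels was not tested.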

How the data were processed

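Blood RNA of 19 horses was hybridised to 1-colour Agilent arrays, and groups and sexes were taken from the sample labels. The authors deposited a scanner file per array, with an intensity per spot that Feature Extraction had corrected for background (version 10.7.3.1 in the file headers, 9.1 in the submitters' processing notes), and a table of normalized log2 values, used here as an alternative. The intensity of 43803 non-control spots was converted to log2 after scaling so that each array had 500 as its 75th percentile. Spots marked as outliers (2 to 56 per array) were left out and spots of a probe were averaged. The share of spots well above background was 61.2% to 69.6% per array, and 0 spots were saturated. The number of arrays limits the precision.

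Most probes carry transcript accessions only. Of 3275 probes with a RefSeq accession, 1781 were named through the table of the assembly TB-T2T. No genome build is named in the files, so no coordinates are given, and no probe, promoter or protein sequences were analysed here. USP18, IRF7 and IFI6 were named from the study's list of genes that differed between the groups.

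Fits over all 43384 probes used limma 3.58.1 (lmFit and eBayes) in R 4.3.3, and p-values were adjusted by the Benjamini-Hochberg method over all probes. The fit was tested on simulated data. The SE of a gene is that of a linear model of its mean over probes. Treatments were compared without covariates, sexes with treatment in the fit. Correlations and permutation tests used Python 3.11.15, numpy 2.4.6 and scipy 1.17.1. The text names the OAS genes, the 10 named genes most like and the 3 least like the family mean, genes of the 2-5A system, and the 3 genes with the smallest p in the pathway lists. Other genes are named as members of these lists, after their values were seen. Some listed genes are not reported here. The members and lists were chosen with earlier results of these data known.

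Alternatives were quantile normalization, centring on the median, normexp background correction with an offset of 50, the deposited log2 values, outlier spots kept, a filter on dim probes, slide as a block or each slide alone, sex or array brightness as a covariate, the brightest probe per gene, correlation after subtracting group means, the methods' t-test and each horse left out. Added after seeing the data were normexp without spots of very bright background, the arrays of scan 1 alone, group medians and the dimmer OASL probe.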

Additional observations from a re-analysis of the deposited data

Results flagged for a closer look

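Among 18 sets of values looked at (the 4 OAS genes, each OASL probe and the 3 pathway genes with the smallest p, in each treatment group), 3 had a horse far from the others by Dixon's criterion, and chance alone is expected to mark about 5% of such sets. The sets are not independent, since the levels of the OAS genes were correlated and OASL enters as a gene and by probe. The 3 flagged sets are therefore not separate cases. All 3 concern EE-treated horse469. For OAS1 this horse lay at 14.63 and the other 9 EE-treated horses between 12.72 and 13.69, so its gap to the nearest horse was 0.492 of the range of the group (limit 0.466). For OAS2 it lay at 9.50 and the others between 7.60 and 8.35, a gap of 0.606 of the range. For SOCS3 it lay at 5.58 and the others between 4.27 and 4.78, a gap of 0.613 of the range.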

How the results depend on the processing

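No paired analysis was possible because the numbers in the labels name single horses, each in 1 group. OAS1, OAS2 and OAS3 stayed lower in EE-treated horses under every alternative over all slides and with each horse left out. The range with a horse left out was -0.67 to -0.42 for OAS1, -1.02 to -0.66 for OAS2, -0.79 to -0.40 for OAS3 and -0.18 to 0.06 for OASL. Under the other alternatives it was -0.96 (normexp) to -0.19 (medians) for OAS1, -1.13 (scan 1 alone) to -0.47 (normexp) for OAS2, -0.96 (scan 1 alone) to -0.23 (normexp) for OAS3 and -0.17 (normexp) to 0.12 (brightest probe) for OASL. Within slide 5 the differences turned to 0.55 (OAS1), 0.58 (OAS2) and 1.03 (OAS3). Under normexp the median EE minus control difference over all probes was 0.86, against 0.064 with the processed signal. It was 0.14 with 31 spots of very bright background on 4 arrays left out. Normexp lowered r to 0.49 for OAS1 with OAS2 and 0.46 for OAS1 with OAS3. With the brightest probe of each gene, r was 0.27 for OAS1 with OASL, 0.32 for OAS2 with OASL and 0.32 for OAS3 with OASL. On scan 1 alone, the sex by treatment difference was -0.66 for OAS1 and -1.09 for OAS3, against 0.05 and -0.19 with all arrays. Leaving out a horse, it ran from -0.34 to 0.32 for OAS1 and from -0.55 to 0.18 for OAS3. The count of 0 pathway probes at the methods' thresholds became 2 with normexp (MX1 and IFI27), 1 when the bright spots were left out (MX1) and 3 on scan 1 alone (MX1, IFI27 and EIF2AK2). It ran from 0 to 2 with a horse left out, with 2 (MX1 and SOCS3) without control horse650. It was 1 without control horse477 or horse471 (MX1), control horse472 or EE-treated horse642 (TLR3) or EE-treated horse469 (IFI27). The share of all probes passing under each of these settings is not given here, so these counts cannot be set against it. The cause of these changes was not tested. The counts of 0 OAS probes for sex and interaction did not change under any alternative run, and no pathway probe passed an adjusted p of 0.05 under any.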
